A study of Mus musculus with 2 samples.

Results

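*Lyve1*, *Timd4* and *Folr2*, a trio of surface receptors used to recognise long-lived resident macrophages, were followed in single immune cells of the mouse aortic adventitia. The members were chosen by their gene symbols, 3 of 55386 features counted. No measured value was part of that rule, but earlier results of these data were known when the members were chosen. Single-cell 3' RNA libraries had been made from live CD45+ cells sorted from the adventitia of whole aortas of RankCreRosa26eYFP mice aged 16 weeks, with 1 library at steady state, from 3 untreated mice, and 1 library from 2 mice given Angiotensin II (AngII), a hypertensive peptide hormone, at 1.8 µg/kg/min for 10 days. All mice carried both alleles: RankCre is switched on in yolk-sac derived macrophage precursors and turns on the Rosa26eYFP reporter for good, so that an *EYFP* transcript marks macrophages that descend from yolk-sac erythro-myeloid progenitors (EMPs), while a cell without an *EYFP* molecule is either not of that lineage or not sampled deeply enough. Animals were pooled within each library and cannot be separated, so no difference between the conditions could be tested, and every interval given here is a 95% interval of counting error alone.

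Tissue-resident macrophages are seeded before birth and renew themselves locally, whereas others are replaced over life from blood monocytes that carry the chemokine receptor *Ccr2*. In many organs, cells that carry LYVE1, TIM4 and folate receptor beta lie along vessels and nerves, are low in MHC class II and are replaced slowly by monocytes. *Lyve1* encodes a receptor for hyaluronan, a glycan of the vessel wall's matrix. *Timd4* encodes a receptor for phosphatidylserine, the lipid by which apoptotic cells are recognised for uptake. *Folr2* encodes folate receptor beta, a membrane-anchored protein that binds folates.

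On GRCm38, the build used for counting, *Lyve1* (ENSMUSG00000030787.4) lies on the minus strand of chromosome 7 at 110850607 to 110863239. *Folr2* (ENSMUSG00000032725.10) lies on the minus strand of the same chromosome at 101839988 to 101857194. *Timd4* (ENSMUSG00000055546.6) lies on the plus strand of chromosome 11 at 46810800 to 46844332. All are protein-coding, and 1 feature carried each symbol.

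The 250 bases before the annotated starts are shown for the 2 members with an entry in the RefSeq promoter table (GRCm38.p6), and *Lyve1* is named only. Capitals mark matches to GGAA followed, after any 2 bases, by GAAA, a composite element of the kind bound by ETS and IRF factors that act together in macrophages. It was searched on both strands, and was chosen after the sequences had been seen. The *Folr2* window is chr7:101857191-101857440 on the minus strand, with the match beginning 136 bases before the start, and the *Timd4* window is chr11:46810549-46810798 on the plus strand, with the match beginning 72 bases before the start.
Folr2: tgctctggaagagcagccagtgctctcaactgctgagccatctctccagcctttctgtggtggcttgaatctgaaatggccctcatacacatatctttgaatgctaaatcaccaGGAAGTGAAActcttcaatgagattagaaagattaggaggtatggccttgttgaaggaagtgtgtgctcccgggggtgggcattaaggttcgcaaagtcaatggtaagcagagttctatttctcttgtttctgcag
Timd4: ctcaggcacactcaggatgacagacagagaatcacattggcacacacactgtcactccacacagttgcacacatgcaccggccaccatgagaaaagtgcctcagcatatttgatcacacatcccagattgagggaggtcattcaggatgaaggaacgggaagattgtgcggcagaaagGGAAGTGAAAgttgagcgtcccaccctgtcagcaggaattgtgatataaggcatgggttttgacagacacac
Both windows held the element once, as GGAAGTGAAA. The window before a second annotated start of *Folr2*, chr7:101845332-101845581, is not printed and had no match. Of all 32851 windows of this length in the table, 756 (2.30%) had a match, and a match describes letters, not a site that is bound. Since the element was chosen from these sequences, that share does not measure how unusual the matches are.

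After removal of barcodes outside 300 to 6500 detected genes or above 5% mitochondrial molecules, 306 of 346 barcodes were kept at steady state and 4198 of 4419 with AngII. Depth differed between the libraries, with a median of 9105 unique molecules (UMIs) per cell at steady state and 1092 with AngII, where 45.5% of cells had fewer than 1000 UMIs. No barcode occurred in both libraries. Clustering placed 133 steady-state cells in 1 cluster that carried macrophage markers and 1239 AngII cells in 2 such clusters; these cells are called macrophage-like below. The members, *EYFP*, *Ccr2* and MHC class II genes had been left out of the genes used for clustering, but their companions had not. The AngII clusters differed in their leading genes, with *Stab1*, *Gas6*, *Cd163* and *Cbr2* in the larger (1038 cells) and interferon-induced genes such as *Cxcl10*, *Ifit3* and *Isg15* in the smaller (201 cells), so the macrophage-like cells of the conditions are not the same mix. A gate that needed no clustering, with at least 1 UMI of *C1qa*, *C1qb* or *C1qc* and 1 of *Adgre1* or *Csf1r*, took 159 and 1873 cells, of which 29 and 278 lay in clusters that could not be named; its main values are given beside those of the clusters. Levels are UMIs summed over cells per 1000000 UMIs of those cells (CPM), and depth ranges are named by their lower bounds of 500, 1000, 2000, 5000, 10000 and 20000 UMIs.

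All members were lower in CPM with AngII than at steady state, and in macrophage-like cells the difference was widest for *Timd4* and narrowest for *Folr2*. In these cells *Lyve1* was at 1218 CPM (1162 to 1276) at steady state and at 193 CPM (181 to 205) with AngII, which was 6.31-fold lower (5.84 to 6.82). *Timd4* was at 128 CPM (111 to 148) and 10.8 CPM (8.16 to 13.9), 11.9-fold lower (8.85 to 16.3). *Folr2* was at 934 CPM (885 to 985) and 369 CPM (353 to 386), 2.53-fold lower (2.36 to 2.71). No interval of the change included 1, and the interval of *Folr2* did not overlap those of the other members. Within the same depth ranges the changes were 6.07-fold for *Lyve1*, 10.7-fold for *Timd4* and 2.39-fold for *Folr2*. Over all immune cells, where the mix of cell types also enters, *Lyve1* was at 506 and 75.6 CPM, *Timd4* at 57.6 and 10.7 CPM and *Folr2* at 390 and 140 CPM. There the order changed, with *Lyve1* 6.69-fold (6.24 to 7.18), *Timd4* 5.4-fold (4.42 to 6.60) and *Folr2* 2.79-fold lower. Fewer resident cells and fewer transcripts per cell cannot be told apart in such a sum.

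*Ccr2* differed in the opposite direction. In macrophage-like cells it was at 239 CPM at steady state and at 1007 CPM with AngII, 4.22-fold higher (3.78 to 4.72). *H2-Aa*, a chain of MHC class II, was at 3720 and 5340 CPM, and *EYFP* at 221 and 131 CPM. Summed over the *C1q* and *Adgre1* or *Csf1r* gate, *Ccr2* was at 638 and 1101 CPM, a smaller difference, while *Lyve1*, *Timd4* and *Folr2* were 7.30-, 13.4- and 3.07-fold lower. With AngII the gate held less of each member than the macrophage-like clusters, at 111 CPM of *Lyve1*, 6.49 CPM of *Timd4* and 204 CPM of *Folr2*, and 81.2 CPM of *EYFP*. At steady state it held 810, 86.6 and 624 CPM of the members and 182 CPM of *EYFP*.

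RNA released from broken cells can give a UMI to a cell that does not express a gene, and lymphocyte-like cells, those of the T cell-like and B cell-like clusters, were taken as the measure of it. At steady state *Lyve1* was found in 3, *Timd4* in 1 and *Folr2* in 2 of 101 lymphocyte-like cells (median 6857 UMIs, against 9704 in macrophage-like cells). With AngII, *Lyve1* was found in 8 (1.64%), *Timd4* in 6 (1.23%) and *Folr2* in 32 (6.54%) of 489 lymphocyte-like cells (median 838 UMIs, against 1245). In CPM this background was 4.71 for *Lyve1* and for *Timd4*, and 30.0 for *Folr2*. One AngII B cell-like cluster, of 88 cells, carried 14790 CPM of macrophage markers. The other AngII B cell-like cluster carried 4420 CPM and the T cell-like cluster 2897 CPM, against 409 and 775 CPM at steady state. Whether the AngII background is free RNA alone was not tested. The *Timd4* level of AngII macrophage-like cells, 10.8 CPM, was thus little more than the background, the gate's level of 6.49 CPM (5.09 to 8.14) lay within the background's interval (2.03 to 9.28), and their *Timd4* share over all depths, 2.26% (28 of 1239 cells; 1.51% to 3.25%), overlapped the background's interval of 0.452% to 2.65%. *Lyve1* and *Folr2*, at 18.6% and 38.3% of AngII macrophage-like cells, lay far above it.

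Detection followed depth, so shares were compared in cells of like depth. In the depth range from 5000 UMIs, *Lyve1* was found in 41 of 47 steady-state macrophage-like cells (87.2%; 74.3% to 95.2%) and in 34 of 94 with AngII (36.2%; 26.5% to 46.7%). *Timd4* was found in 25 of 47 (53.2%; 38.1% to 67.9%) and in 6 of 94 (6.38%; 2.38% to 13.4%). *Folr2* was found in 40 of 47 (85.1%; 71.7% to 93.8%) and in 70 of 94 (74.5%; 64.4% to 82.9%). At this depth *Lyve1* and *Timd4* were in fewer AngII cells by more than counting error, whereas the intervals of *Folr2* overlapped. In the range from 10000 UMIs, *Folr2* was found in 47 of 50 cells (94.0%) and in 77 of 123 (62.6%), and the intervals no longer did. For *Lyve1* the shares in that range were 82.0% and 22.8%, and for *Timd4* 70.0% and 8.13%.

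**Figure D1:**
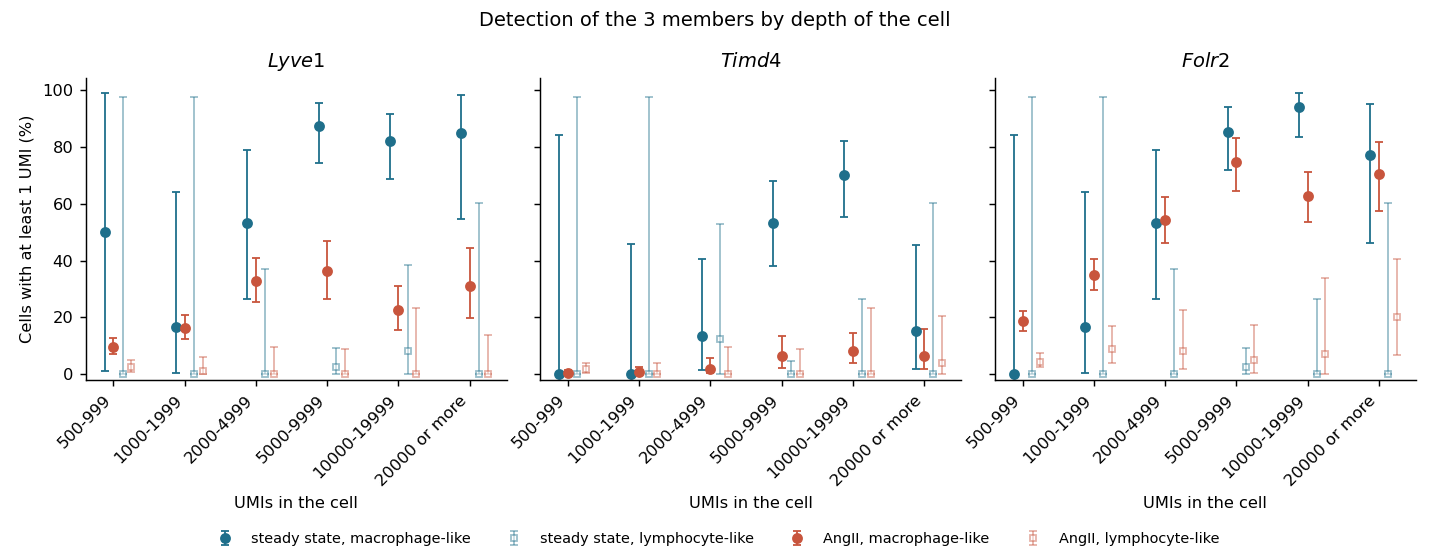
Share of cells with at least 1 UMI of *Lyve1*, *Timd4* or *Folr2* (vertical axis, percent) by UMIs per cell (horizontal axis, ranges) for macrophage-like and lymphocyte-like cells of each library, with exact 95% binomial intervals. In macrophage-like cells of the range from 5000 UMIs, *Lyve1* was found in 87.2% at steady state and 36.2% with AngII, *Timd4* in 53.2% and 6.38%, and *Folr2* in 85.1% and 74.5%.

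The deepest steady-state macrophage-like cells stood apart for *Timd4*. Of the 13 cells with 20000 UMIs or more, 2 had *Timd4* (11 CPM; 3.00 to 28.2), against 35 of 50 cells in the range from 10000 UMIs (198 CPM; 166 to 235). *Lyve1* remained at 1144 CPM in these 13 cells, and *Folr2* was at 597 CPM against 1135 CPM in the range below. In 9 of these 13 cells *Ccr2* was found.

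When each cell was thinned to 1000 UMIs, *Lyve1* was found in 63 of 131 steady-state macrophage-like cells (48.1%) and 105 of 746 with AngII (14.1%). *Timd4* was found in 11 of 131 (8.40%) and 8 of 746 (1.07%), and *Folr2* in 63 of 131 (48.1%) and 194 of 746 (26.0%). Shallower cells were left out, 2 at steady state and 493 with AngII. Among lymphocyte-like cells thinned in the same way the AngII shares were 0.495% for *Lyve1* and for *Timd4* and 5.45% for *Folr2*.

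Cells of 1 library differed widely in the members. Among the 110 steady-state macrophage-like cells with 5000 UMIs or more, the median was 842 CPM for *Lyve1*, with quartiles of 195 and 2023 and a highest cell at 7355. For *Folr2* the median was 830 CPM, with quartiles of 375 and 1491 and a highest cell at 3630. For *Timd4* the median was 83.3 CPM, the upper quartile 232 and the highest cell 1061, and the lower quartile was 0. With AngII, among 278 such cells, the median was 232 CPM for *Folr2* and 0 for the other members, while the highest cells still reached 4893 CPM for *Lyve1*, 2590 CPM for *Folr2* and 346 CPM for *Timd4*. *Lyve1* transcripts were concentrated, with 36.5% of those in AngII macrophage-like cells held by 10 cells, compared with 16.9% for *Folr2*. For *Timd4*, 12 of 58 UMIs came from 1 cell.

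At steady state the members were nearly confined to macrophage-like cells. The cluster held 95.6% of *Lyve1*, 88.6% of *Timd4* and 95.1% of *Folr2* UMIs of the library. A cluster of 45 cells led by *Lyz1*, *Cxcl9* and *Fn1*, which could not be named, had 69.4 CPM of *Lyve1*, 21.3 CPM of *Timd4* and 61.0 CPM of *Folr2*, and no other steady-state cluster exceeded 7.66 CPM of any member. With AngII the macrophage-like share of UMIs was 76.4% for *Lyve1* and 79.0% for *Folr2*, but 30.2% for *Timd4*.

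The remaining *Timd4* with AngII lay mainly in dendritic cells. A dendritic cell-like cluster of 66 cells, led by genes of type 1 conventional dendritic cells (*Xcr1*, *Clec9a*, *Itgae* and *Irf8*), was at 41.9 CPM of *Timd4* (32.6 to 53.1), found in 16 cells (24.2%), and held 35.9% of all *Timd4* UMIs of the library. A dendritic cell-like cluster of 110 cells led by *Fscn1*, *Ccr7* and *Ccl22*, genes of migratory dendritic cells, was at 27.7 CPM (19.5 to 38.2), found in 11 cells. Both exceeded the larger macrophage-like cluster, at 9.35 CPM (6.74 to 12.6). These were deep cells, with medians of 25369.5 and 13802 UMIs, but CPM does not grow with depth as a share does. *Lyve1* was at 1.22 and 5.24 CPM in these clusters and *Folr2* at 6.08 and 2.99 CPM, so *Timd4* was found there without its partners. In the 52 *Timd4*+ cells outside the macrophage-like clusters, 10 dendritic markers summed to 2542 CPM and 12 macrophage markers to 4806 CPM, compared with 86.8 and 39361 CPM in the 28 *Timd4*+ macrophage-like cells.

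*Lyve1* and *Folr2* appeared outside macrophage-like cells as well. An unnamed cluster of 254 AngII cells led by *Retnla*, *Ear2* and *Lyz1* had 182 CPM of *Folr2* (156 to 210) and 76.0 CPM of *Lyve1*. A neutrophil-like cluster of 229 cells had 133 CPM of *Folr2* and 123 CPM of *Lyve1*, at a median depth of 989 UMIs per cell. Both clusters also carried macrophage markers, which summed to 13256 CPM in the unnamed and 19492 CPM in the neutrophil-like cluster. In the macrophage-like clusters they summed to 37769 and 27877 CPM, and in the other neutrophil-like clusters to 5978 and 16507 CPM. Whether these clusters include macrophages was not tested. In a dendritic cell-like cluster of 595 cells *Lyve1* came to 165 CPM, but 1 cell held 110 of its 121 UMIs. Doublets were sought with Scrublet, which called none of the AngII cells and 5 at steady state and so gave no usable screen with AngII; the part of doublets and free RNA in these values was not tested.

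**Figure D2:**
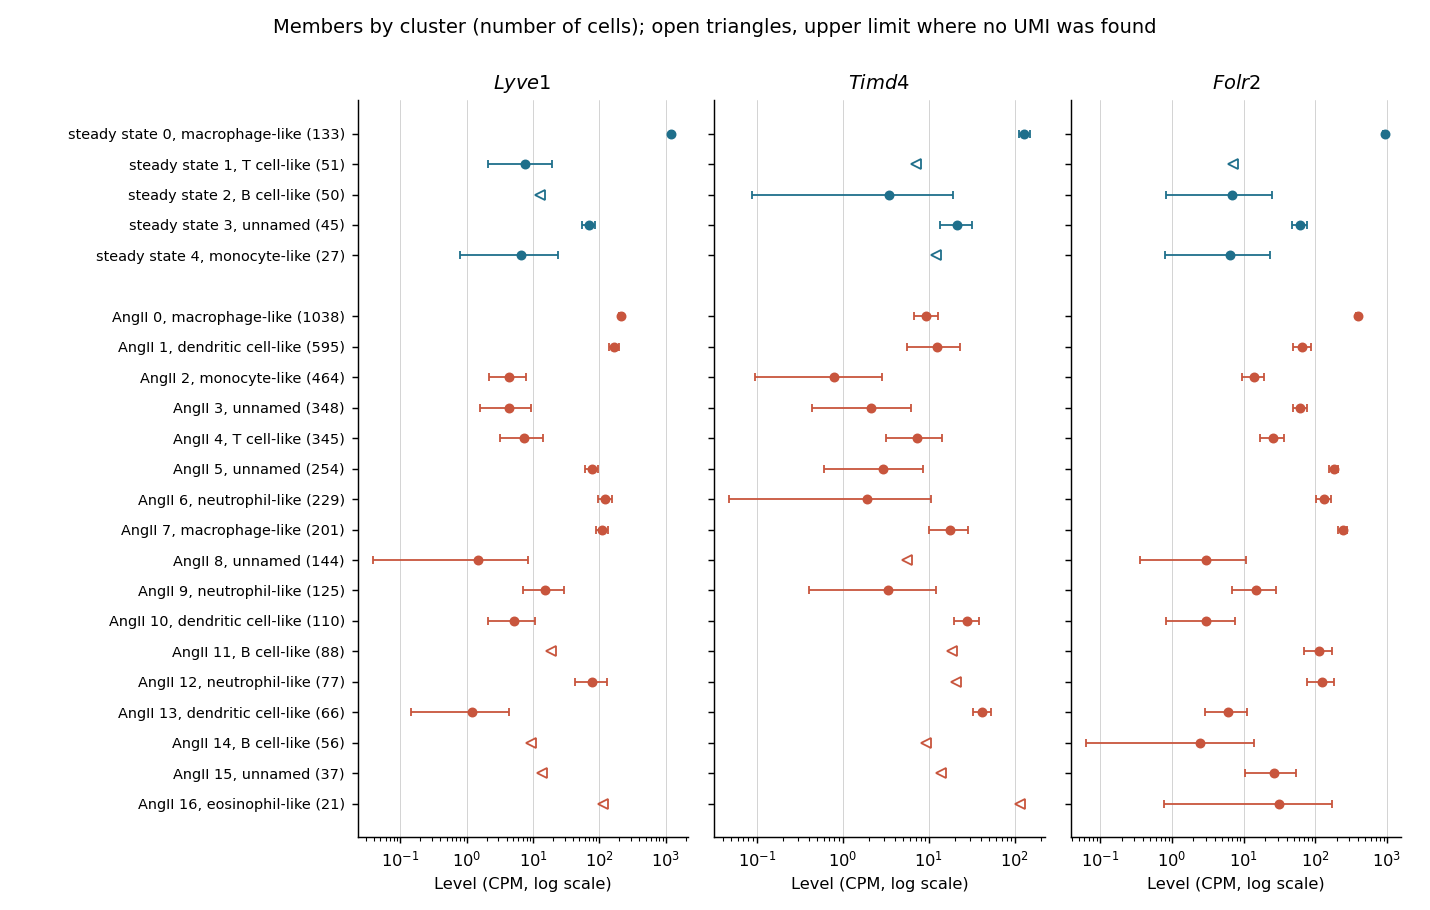
Level of each member (CPM, log axis) in every cluster of both libraries, with exact 95% Poisson intervals. *Lyve1*, at 1218 and 210 CPM, and *Folr2*, at 934 and 395 CPM, were highest in the cluster numbered 0 of each library, and *Timd4* with AngII was highest, at 41.9 CPM, in the dendritic cell-like cluster led by *Xcr1*.

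*Lyve1* is also a marker of lymphatic endothelium, so its cells were checked for the rest of that programme. Of 6 lymphatic markers (*Prox1*, *Flt4*, *Mmrn1*, *Ccl21a*, *Reln* and *Pdpn*), 3 had no UMI in either library. Together they came to 2.52 CPM in *Lyve1*+ and 0 in *Lyve1*− macrophage-like cells at steady state, and to 11 and 17.3 CPM with AngII. The 12 macrophage markers came to 35957 CPM in *Lyve1*+ cells and 19121 CPM in *Lyve1*− cells at steady state, and to 35219 and 36442 CPM with AngII. At steady state cells without a member thus carried less of the macrophage programme, and for *Folr2* the difference was wider, 36246 against 12439.7 CPM. With AngII it was 38373 against 32638 CPM for *Folr2*.

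The members were found together, and *Timd4* was nested within *Folr2*. Among steady-state macrophage-like cells with 5000 UMIs or more, *Lyve1* was found in 88 of 97 *Folr2*+ cells (90.7%; 83.1% to 95.7%) and 5 of 13 *Folr2*− cells (38.5%; 13.9% to 68.4%). *Folr2* was found in 61 of 62 *Timd4*+ cells (98.4%; 91.3% to 99.96%) and in 36 of 48 *Timd4*− cells (75%; 60.4% to 86.4%). *Timd4* was found in 57 of 93 *Lyve1*+ cells (61.3%; 50.6% to 71.2%) and 5 of 17 *Lyve1*− cells (29.4%; 10.3% to 56.0%), with overlapping intervals. Nearly every *Timd4*+ cell thus had *Folr2*, while 36 of 97 *Folr2*+ cells had no *Timd4*.

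With AngII the same order held and *Folr2* extended further beyond the other members. Its background in lymphocyte-like cells was also higher, at 30.0 CPM against 2.47 CPM at steady state. *Folr2* was found in 77 of 81 *Lyve1*+ cells (95.1%; 87.8% to 98.6%), yet *Lyve1* was found in only 77 of 190 *Folr2*+ cells (40.5%; 33.5% to 47.9%). *Lyve1* was found in 4 of 88 *Folr2*− cells (4.55%; 1.25% to 11.2%). *Timd4* was found in 17 of 81 *Lyve1*+ cells (21%; 12.7% to 31.5%) and in 3 of 197 *Lyve1*− cells (1.52%; 0.315% to 4.39%). *Lyve1* without *Folr2* and *Timd4* without *Folr2* were therefore both rare at this depth in both libraries.

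Pooled over depth ranges and all macrophage-like cells, *Lyve1* was found 2.75 times as often in *Folr2*+ as in *Folr2*− cells at steady state and 2.90 times as often with AngII. Over the *C1q* and *Adgre1* or *Csf1r* gate the AngII ratio was 4.52. *Timd4* was found 2.38 and 10.2 times as often in *Lyve1*+ as in *Lyve1*− cells, and 8.31 and 5.90 times as often in *Folr2*+ as in *Folr2*− cells. The ratios by *Folr2* rest on 1 *Timd4*+ *Folr2*− cell at steady state and 4 with AngII. Outside macrophage-like cells with AngII, *Timd4* and *Folr2* shared 5 cells and the ratio was 0.678, and *Timd4* and *Lyve1* shared 3 cells.

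Cells with all 3 members made up 56 of 110 steady-state macrophage-like cells with 5000 UMIs or more (50.9%; 41.2% to 60.6%) and 16 of 278 with AngII (5.76%; 3.33% to 9.18%). Cells with *Lyve1* and *Folr2* alone made up 29.1% and 21.9%, and their intervals overlapped. Cells with *Folr2* alone made up 4 of 110 (3.64%) and 110 of 278 (39.6%; 33.8% to 45.6%), and cells with no member 8 of 110 (7.27%) and 84 of 278 (30.2%; 24.9% to 36.0%). The triple-positive cell was the commonest kind at steady state and the *Folr2*-only cell the commonest with AngII. Free RNA can place a cell in the *Folr2*-only class. The *Folr2* background in lymphocyte-like cells was 30.0 CPM with AngII and 2.47 CPM at steady state. Its part in the size of this class was not tested. Median depths of these classes with AngII lay between 10889 and 13104 UMIs.

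**Figure D3:**
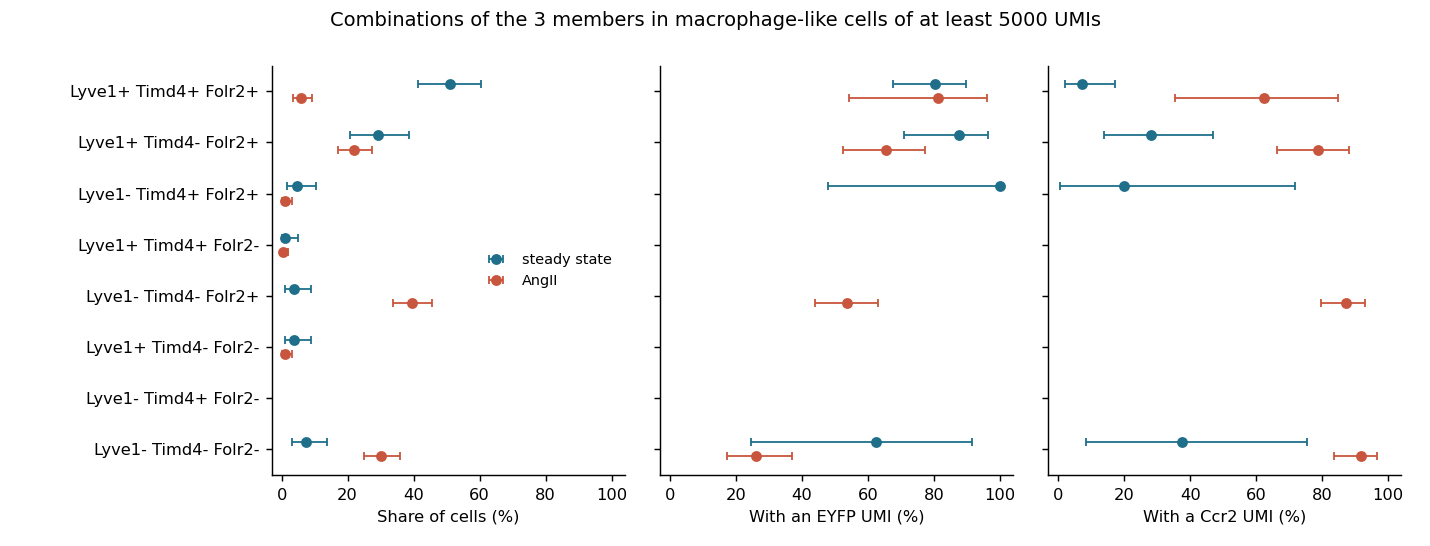
Share of macrophage-like cells with 5000 UMIs or more that carry each combination of members (percent, exact 95% binomial intervals), with the share of *EYFP*+ and of *Ccr2*+ cells in combinations of at least 5 cells. Triple-positive cells made up 50.9% at steady state and 5.76% with AngII, and *EYFP* was found in 81.3% of triple-positive and 26.2% of triple-negative AngII cells.

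With AngII, *EYFP* was found least often in cells with no member. It was found in 13 of 16 triple-positive cells (81.3%; 54.4% to 96.0%), in 40 of 61 with *Lyve1* and *Folr2* (65.6%; 52.3% to 77.3%), in 59 of 110 with *Folr2* alone (53.6%; 43.9% to 63.2%) and in 22 of 84 with none (26.2%; 17.2% to 36.9%). Of these 4 classes only the triple-negative interval lay apart from the others. *EYFP* too had a background. It was found in 13 of 489 AngII lymphocyte-like cells (2.66%, 16.5 CPM) and 9 of 101 at steady state (8.91%, 30.8 CPM), the latter all among 51 T cell-like cells. In the ranges from 5000, 10000 and 20000 UMIs the background with AngII was 3 of 39, 0 of 14 and 5 of 25 cells, and at steady state 3 of 75, 4 of 12 and 1 of 4. The AngII share in the deepest of these ranges (20%; 6.83% to 40.7%) overlapped that of triple-negative cells. At steady state *EYFP* was found in 80.4% of triple-positive cells, 87.5% of those with *Lyve1* and *Folr2* and 62.5% of the 8 triple-negative cells, with overlapping intervals.

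Split by *EYFP*, macrophage-like cells with at least 1 *EYFP* UMI carried more of every member in both libraries. At steady state (94 *EYFP*+ and 39 *EYFP*− cells) *Lyve1* was at 1378 against 563 CPM, 2.45-fold higher (2.08 to 2.90), *Folr2* at 1038 against 510 CPM, 2.03-fold higher (1.71 to 2.43), and *Timd4* at 142 against 73.9 CPM, 1.92-fold higher (1.21 to 3.18). *EYFP*+ cells were deeper, with a median of 10812.5 against 5153 UMIs. Within depth ranges the ratios were 2.5, 1.90 and 1.32. Counted as shares of cells, the steady-state order for *Timd4* turned, since within depth ranges *EYFP* was found 0.951 times as often in *Timd4*+ as in *Timd4*− cells, against 1.15 for *Lyve1* and 1.33 for *Folr2*. In the range from 5000 UMIs, where 15 *EYFP*− cells could be set against 32, the ratio was 1.16 (0.933 to 1.44) for *Lyve1*, 0.903 (0.483 to 1.76) for *Timd4* and 1.15 (0.906 to 1.48) for *Folr2*. No member differed by more than counting error in this range, and in the range from 10000 UMIs, where *Lyve1* differed 4.89-fold, there were 3 *EYFP*− cells. The range from 20000 UMIs also held 3 *EYFP*− cells, which had 1 *Lyve1* UMI in all, against 415 UMIs (1480 CPM) in 10 *EYFP*+ cells.

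With AngII the split was carried by many cells (262 *EYFP*+ and 977 *EYFP*−). *Lyve1* was at 263 against 132 CPM, 1.99-fold higher (1.75 to 2.26), *Timd4* at 17.5 against 4.85 CPM, 3.61-fold higher (1.94 to 7.14), and *Folr2* at 475 against 278 CPM, 1.71-fold higher (1.56 to 1.87). Within depth ranges the ratios were 2.29, 4.70 and 2.02. The *EYFP*− level of *Timd4* was that of the lymphocyte-like background. *Lyve1* was 3.26-fold higher (2.42 to 4.43) in *EYFP*+ cells of the range from 5000 UMIs, 6.44-fold (4.56 to 9.31) in that from 10000 and 1.26-fold (0.982 to 1.63) in that from 20000. Within depth ranges *EYFP* was found 1.32, 1.39 and 1.52 times as often in cells with *Lyve1*, *Timd4* and *Folr2* as in cells without. The gate gave wider ratios of level within depth ranges, of 4.90 for *Lyve1*, 6.21 for *Timd4* and 3.92 for *Folr2* with AngII and 3.90, 1.65 and 3.07 at steady state.

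*Lyve1* and *Folr2* did not grow steadily with the number of *EYFP* UMIs. At steady state *Lyve1* was at 563, 1168, 1571 and 1386 CPM in cells with 0, 1, 2 and at least 3 *EYFP* UMIs, and *Folr2* at 510, 1079, 1235 and 968 CPM. With AngII *Lyve1* was at 132, 285, 422 and 228 CPM and *Folr2* at 278, 515, 542 and 451 CPM. In both genes and both libraries every class with *EYFP* exceeded the class without it. Over the gate the AngII class without *EYFP* was lower still, at 59.4 CPM of *Lyve1* and 122 CPM of *Folr2*. *Timd4* with AngII was higher in each successive class, at 4.85, 11.5, 13.3 and 20.1 CPM, with overlapping intervals from 1 UMI on, and at steady state it was at 73.9, 178, 194 and 115 CPM.

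Split by *Ccr2*, cells without a *Ccr2* UMI carried more of every member. At steady state (112 *Ccr2*− and 21 *Ccr2*+ cells) *Timd4* was at 168 against 20.4 CPM, 8.27-fold higher (4.11 to 19.5), *Folr2* at 1103 against 481 CPM, 2.29-fold higher (2.0 to 2.7), and *Lyve1* at 1335 against 901 CPM, 1.48-fold higher (1.32 to 1.67). Within depth ranges the ratios were 4.68, 2.12 and 1.77. Over all depths *Timd4* had the widest difference of the 3 by interval, but only 5 *Ccr2*+ cells had *Timd4*. Many *Ccr2*+ cells were deep: from 20000 UMIs, *Ccr2* was found in 8 of 11 *Timd4*− cells. The ratios within depth ranges have no interval. The ranges themselves disagreed for *Lyve1*, at 0.596 (0.451 to 0.80) from 5000 UMIs, with 4 *Ccr2*+ cells, and 8.30 (5.28 to 13.9) from 10000 UMIs, with 7.

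With AngII (476 *Ccr2*− and 763 *Ccr2*+ cells) *Lyve1* was at 340 against 162 CPM, 2.10-fold higher (1.84 to 2.40), *Timd4* at 20 against 8.78 CPM, 2.28-fold higher (1.24 to 4.03), and *Folr2* at 569 against 327 CPM, 1.74-fold higher (1.57 to 1.92). Within depth ranges the ratios were 2.33, 3.1 and 1.80, although *Ccr2*− cells were shallower, with a median of 789 against 1863 UMIs. Over the gate the AngII ratios were similar and those at steady state were wider, at 3.81 for *Lyve1*, 7.07 for *Timd4* and 3.88 for *Folr2*.

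Split by *H2-Aa*, the members differed with AngII, and at steady state the outcome depended on the level of *H2-Aa* asked for. From 1 UMI, at steady state (30 *H2-Aa*− and 103 *H2-Aa*+ cells) *Lyve1* was at 1155 against 1232 CPM, a ratio of 0.938 (0.825 to 1.06), *Folr2* at 961 against 928 CPM, 1.04 (0.898 to 1.19), and *Timd4* at 171 against 119 CPM, 1.43 (0.996 to 2.02). No interval excluded 1. With AngII (190 and 1049 cells) *Lyve1* was at 437 against 157 CPM, 2.79-fold higher in *H2-Aa*− cells (2.43 to 3.19), *Timd4* at 22.9 against 8.94 CPM, 2.56-fold higher (1.35 to 4.66), and *Folr2* at 427 against 361 CPM, 1.18-fold higher (1.04 to 1.34). The *Lyve1* ratio lay above that of *Folr2* by interval. *H2-Aa* itself was found in 73.2% of AngII lymphocyte-like cells, a class that includes B cells, so a single UMI is a weak mark of MHC class II expression. When 10 *H2-Aa* UMIs per 10000 were asked for, the ratios within depth ranges were 1.32 for *Lyve1*, 1.09 for *Timd4* and 1.34 for *Folr2* at steady state and 2.16, 1.27 and 1.35 with AngII, so that each member was then higher in *H2-Aa*− cells of both libraries.

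**Figure D4:**
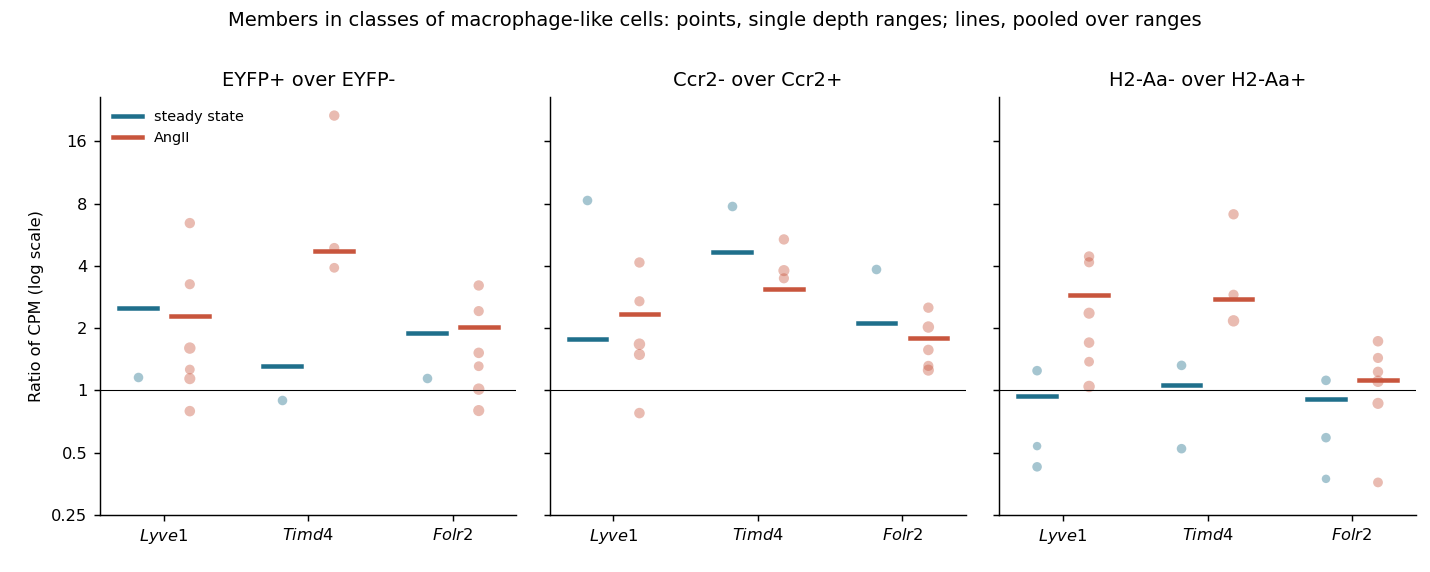
Ratio of member CPM between *EYFP*+ and *EYFP*−, *Ccr2*− and *Ccr2*+, and *H2-Aa*− and *H2-Aa*+ macrophage-like cells of each library (log axis), with a class positive from 1 UMI; points, larger with more cells, are depth ranges with at least 5 cells in each class and lines are values pooled over all ranges. Pooled *Lyve1* ratios were 2.5, 1.77 and 0.938 at steady state and 2.29, 2.33 and 2.89 with AngII.

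Taking *Ccr2* and *H2-Aa* jointly with AngII, from 1 UMI of each, cells with neither (105 cells) had 639 CPM of *Lyve1* (546 to 743) and 41.6 CPM of *Timd4* (20.8 to 74.4), and cells with both (678 cells) had 145 CPM (134 to 157) and 8.48 CPM (5.87 to 11.9). *Folr2* was at 567 CPM in cells with neither, 569 CPM in cells with *H2-Aa* only, 341 CPM in cells with *Ccr2* only and 325 CPM in cells with both. By these classes *Folr2* differed by *Ccr2*, and its intervals overlapped between *H2-Aa* classes, whereas *Lyve1* was lower with either gene. With 10 *H2-Aa* UMIs per 10000 asked for, *Folr2* differed in *Ccr2*− cells by *H2-Aa* as well, at 644 CPM (576 to 718) in *H2-Aa*− and 484 CPM (422 to 553) in *H2-Aa*+ cells. Over the gate, cells with neither gene had 389 CPM of *Lyve1* and 336 CPM of *Folr2*. At steady state, cells with *H2-Aa* only (84 cells) had 1358 CPM of *Lyve1*, 163 CPM of *Timd4* and 1125 CPM of *Folr2*, against 1259, 186 and 1026 CPM in the 28 cells with neither. With the higher *H2-Aa* level, *Ccr2*− cells had 1515 CPM of *Lyve1* (1406 to 1631) and 1221 CPM of *Folr2* (1123 to 1325) when *H2-Aa*−, and 1190 CPM (1103 to 1282) and 1007 CPM (928 to 1092) when *H2-Aa*+.

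Member-positive cells themselves differed between the libraries. Among macrophage-like cells with 5000 UMIs or more, *Lyve1*+ cells held 1492 CPM of *Lyve1* (1422 to 1564) at steady state and 680 CPM (634 to 728) with AngII. *Folr2*+ cells held 1079 CPM (1021 to 1139) and 552 CPM (525 to 581) of *Folr2*. *Timd4*+ cells held 264 CPM (228 to 306) and 160 CPM (119 to 212) of *Timd4*. The level within cells called positive from 1 UMI was therefore lower with AngII for each member, beside the lower share of positive cells. Free RNA can add cells with 1 UMI and so lower this level. The background in lymphocyte-like cells was higher with AngII for *Folr2* (30.0 against 2.47 CPM) and *Timd4* (4.71 against 1.23 CPM). For *Lyve1* it was alike (4.71 against 4.93 CPM). The part of free RNA was not tested.

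*Ccr2* was found in most AngII member-positive cells. It was found in 14 of 93 *Lyve1*+ cells at steady state (15.1%) and 60 of 81 with AngII (74.1%), in 5 of 62 (8.06%) and 13 of 20 (65.0%) *Timd4*+ cells, and in 16 of 97 (16.5%) and 156 of 190 (82.1%) *Folr2*+ cells. The level of *Ccr2* in *Lyve1*+ cells was 210 CPM (184 to 238) and 759 CPM (710 to 810). In AngII *Lyve1*− cells it was 1122 CPM (1084 to 1161), so member-positive cells stayed below the rest. The 10 monocyte markers summed to 147 CPM in *Lyve1*+ cells at steady state and 347 CPM with AngII, against 150 and 629 CPM in *Lyve1*− cells. *H2-Aa* in *Lyve1*+ cells was at 3622 and 3693 CPM, with overlapping intervals, while *Lyve1*− cells were at 4759 and 6059 CPM. In *Timd4*+ cells it was at 2894 CPM (2769 to 3023) and 5197 CPM (4944 to 5459), and in *Folr2*+ cells at 3374 CPM (3272 to 3479) and 4366 CPM (4289 to 4444), without overlap. In lymphocyte-like cells, some of which may express it, *Ccr2* was at 276 CPM at steady state and 247 CPM with AngII. In the B cell-like cells among them it was at 3.47 CPM (1 of 50 cells) and 289 CPM (39 of 144 cells). Of these 144 cells, 88 lay in the cluster with 14790 CPM of macrophage markers. The *Ccr2* shares of deep AngII cells may include free RNA, and its part was not tested.

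Genes of known resident macrophages accompanied *Folr2*. A list of 20 companions was compared between *Folr2*+ and *Folr2*− macrophage-like cells within depth ranges. At steady state 20 of 20 were at least 2-fold higher in *Folr2*+ cells, where 17.7% of 7408 genes tested were, and their median ratio was 3.85, against 1.07 over all genes. With AngII 17 of 20 were, where 5.04% of 10184 genes were, and their median was 3.5, against 1.06. At steady state the 12 macrophage markers were also higher in *Folr2*+ cells, at 36246 against 12440 CPM. T cell markers were lower in *Folr2*+ cells, at 20.8 against 250 CPM, but the latter rests on 50 UMIs in 3 of 27 cells. By the macrophage markers, the steady-state difference was thus not particular to the companions. With AngII the 12 macrophage markers were closer, at 38373 against 32638 CPM. The companions below 2-fold with AngII were *Selenop*, a selenium transport protein, at 1.80, the transcription factor *Maf* at 1.90 and the endocytic adaptor *Dab2* at 1.92. *Cd209d*, a lectin, had the highest AngII ratio (9.39), and *Vsig4*, a complement receptor, the highest at steady state, 85.7 against 5.0 CPM. The lower *Vsig4* level, over 27 *Folr2*− cells, rests on very few UMIs, so the size of that ratio is uncertain. Some of these companions lead the clusters from which macrophage-like cells were taken, and the list was chosen with earlier results of these data known. By *Lyve1* in place of *Folr2*, 12 of 20 (background 10.8%) and 13 of 20 (background 4.01%) were at least 2-fold higher.

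Genes of MHC class II were lower in *Folr2*+ cells. All 5 had ratios under 1 in both libraries, with medians of 0.509 and 0.589, and 2 of 5 at steady state and 1 of 5 with AngII were at least 2-fold lower, where 8.56% and 2.92% of all genes were. *Ciita*, the master regulator of the class, was at 61.6 against 95 CPM at steady state and 70.1 against 141 CPM with AngII.

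The biochemical relatives of the members did not share one direction. Of 10 other hyaluronan receptors and enzymes, 4 had at least 20 UMIs: *Hyal2*, a hyaluronidase, was higher in *Folr2*+ cells in both libraries (3.66 and 4.65), while the hyaluronan receptor *Cd44* was at 0.654 and 1.34. Of 9 TIM family and phosphatidylserine receptor genes, 3 at steady state and 5 with AngII were measured. *Mertk*, a receptor tyrosine kinase for uptake of apoptotic cells, was at 2.70 and 1.23, and its relative *Axl* was lower in *Folr2*+ cells in both libraries (0.512 and 0.449). Of 7 folate genes, 1 and 5 were measured, and *Ggh*, which trims stored folates, was even (0.962 and 1.01). *Folr1* had no UMI in these cells of either library.

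**Figure D5:**
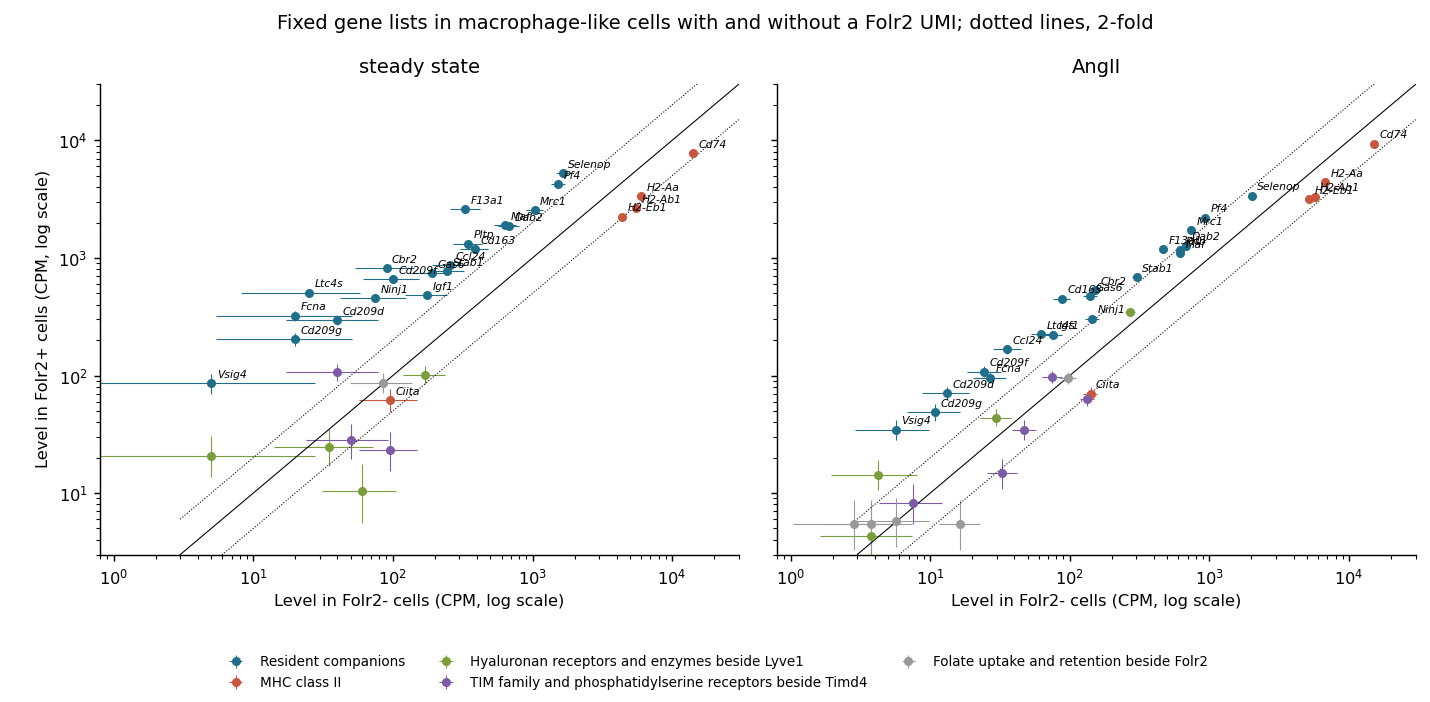
CPM of list genes in *Folr2*− (horizontal, log axis) and *Folr2*+ (vertical, log axis) macrophage-like cells of each library; the solid line marks equal levels and dotted lines a 2-fold difference. Resident companions lie above the solid line in both libraries (20 of 20 ratios above 1), and MHC class II genes lie below it.

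The genes whose cell-to-cell pattern was most like each member were ranked by the lower Pearson r of the libraries, for log2(UMIs per 10000 + 1) over 125 steady-state and 431 AngII macrophage-like cells with at least 2000 UMIs. For *Lyve1* they were *Folr2* (0.71 at steady state and 0.45 with AngII), *Fcna* (0.69 and 0.43), *Gas6*, *Cd163* and *Fgfr1*. For *Timd4* they were *Lyve1* (0.45 and 0.37), *Vsig4*, *C4b*, *Pmp22* and *Ddx60*. For *Folr2* they were *Cbr2* (0.68 and 0.58), *Gas6*, *F13a1*, *Mrc1* and *Fcgrt*. *Lyve1* was 7th for *Folr2*, and *Folr2* was 7th for *Timd4*. The cells of a library share its preparation and differ in depth, and these values are given as a description.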

How the data were processed

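The authors deposited filtered feature-barcode matrices of raw UMI counts from 10x Genomics 3' v3.1 libraries, which per the labels and the study's methods were demultiplexed with Je-demultiplex-illu and counted with Cell Ranger 3.1.0 on GRCm38.p6 (GENCODE M24) with an eYFP sequence added. The deposited 346 and 4419 barcodes equal the cell numbers the study gives, and its stated filter (300 to 6500 genes, at most 5% mitochondrial counts) left 306 and 4198. Coordinates come from GENCODE M21, in which the 3 gene identifiers and versions are the same. Each library was clustered by itself after the study's methods (SCTransform, sctransform 0.4.2, with mitochondrial share and cell-cycle scores as covariates, Louvain at resolution 0.4; Seurat 5.3.0, R 4.3.3), but on a fixed 20 principal components where the study chose them by a JackStraw test, with 10 genes (members, *EYFP*, *Ccr2*, MHC class II) left out of the variable genes. Clusters were named from fixed marker lists; the exact rule, which needs 3 markers present in at least 10% of the cluster's cells, was written with the clusters in view. CPM carries exact Poisson intervals and shares exact Clopper-Pearson intervals (SciPy 1.17.1). Ratios within depth ranges were pooled by the Mantel-Haenszel method and have no interval. A gene was measured in a list with at least 20 UMIs and counted as higher or lower from 2-fold. Scripts were tested on simulated data. Named genes were the members, the splitting genes, up to 5 of each list with the highest and lowest ratios, and the 5 genes most like each member. The members and lists were chosen with earlier results of these data known. With 1 library per condition no test was run. Alternatives were other cell filters, a gate in place of clusters, resolution 0.8, removal of Scrublet calls (Scanpy 1.11.5), other detection limits and thinning.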

Additional observations from a re-analysis of the deposited data

Results flagged for a closer look

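In the split by *H2-Aa* from 1 UMI, *Lyve1* and *Folr2* pointed in opposite directions in the libraries within depth ranges. *H2-Aa*− over *H2-Aa*+ macrophage-like cells gave a *Lyve1* ratio of 0.938 at steady state and 2.89 with AngII. *Folr2* gave 0.910 and 1.13. The difference between the libraries was not tested, there being 1 library of each. Without the cell with most *Lyve1* UMIs the steady-state *Lyve1* ratio was 0.719, and over the *C1q* and *Adgre1* or *Csf1r* gate it was 1.04, whereas the gate gave 2.25 with AngII. For *Folr2* the gate gave 1.01 and 0.961. With 10 *H2-Aa* UMIs per 10000 asked for, the ratios were 1.32 and 2.16 for *Lyve1* and 1.34 and 1.35 for *Folr2*, so that both libraries pointed the same way. The steady-state direction of both genes and the AngII direction of *Folr2* therefore changed with the choice of cells or of the *H2-Aa* level, and of these 4 ratios only that of *Lyve1* with AngII kept its direction under every alternative run.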

How the results depend on the processing

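Each member was lower with AngII under every alternative run, over all cells and over macrophage-like cells (6 of 6 ratios above 1), and all 3 thinned shares kept their direction, as did all 6 pairwise co-detection ratios and all 6 ratios by *EYFP* and by *Ccr2*; of the 6 ratios by *H2-Aa*, 4 were above 1, and 3 to 6 under the alternatives. Values also moved in size under the alternatives, and the cause was not tested. Beyond a counting interval, 17 values of the ratios by *EYFP* moved and 34 did not. By *Ccr2* these counts were 12 and 39, and by *H2-Aa* 15 and 36. Of the values for co-detection, which have no interval, 5 moved past a fixed fold limit and 34 did not. Between the libraries, the following ratios moved beyond their counting intervals. In macrophage-like cells the steady-state level over that with AngII was 7.35 for *Lyve1* and 2.96 for *Folr2* with all barcodes, 7.66 and 3.11 with at least 1000 detected genes, 7.30 and 3.07 with the gate, 5.38 and 2.21 at resolution 0.8, and 5.34, 8.54 and 2.79 for *Lyve1*, *Timd4* and *Folr2* after thinning to 1000 UMIs. With the lymphocyte-like CPM subtracted it was 21 for *Timd4* and 2.75 for *Folr2*, and over all cells 9.47 and 3.53. Over all cells the mean of per-cell CPM gave 5.67, 7.24 and 2.53 for *Lyve1*, *Timd4* and *Folr2*, and thinning gave 4.89 for *Lyve1*. The ratio of thinned shares was 3.42, 7.83 and 1.85; it was 21 for *Timd4* at 500 UMIs, 1.48 for *Folr2* at 2000 UMIs, 10.6 and 3.99 for *Lyve1* and *Folr2* when 2 UMIs were asked for, 25.5 for *Timd4* with all barcodes, and 4.49, 29.1 and 2.52 with at least 1000 genes. With 2 UMIs asked for, no AngII cell had *Timd4*, so that ratio has no value. By *Lyve1* in place of *Folr2*, 12 companions in place of 20 were at least 2-fold higher at steady state. No paired analysis was possible because each condition had 1 library. *Timd4* with AngII rests on 58 UMIs in macrophage-like cells, and steady-state classes such as *Ccr2*+ or *EYFP*− cells on 21 and 39 cells.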
